A study of Mus musculus with 2 samples.

Results

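Integrins are heterodimers of an alpha and a beta subunit that bind the extracellular matrix outside the cell and, through a layered set of adaptor proteins, the actin cytoskeleton inside it. Talin and kindlin bind the beta tail and switch the receptor on, vinculin and alpha-actinin link it to actin, and the kinases Ptk2 (focal adhesion kinase), Src and Fyn signal from the site. In the mammary gland, integrins hold the basal cell layer on its basement membrane. The genes described here are 35 named members of this system (11 integrin subunits outside hemidesmosomes and 24 adaptors, actin crosslinkers and kinases), taken by symbol from a table of 15239 genes. All 35 were listed, each in 1 row, and all 35 had a mean of at least 1 FPKM (fragments scaled to the length of the gene and to the library's total), the level above which a gene counted as measured.

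Messenger RNA was sequenced from normal mouse mammary basal cells in which short hairpin RNAs were expressed, with a scrambled sequence in the group Scramble control and with Cdk14 as the target in the group Cdk14-sh. Cdk14 is a kinase that works with cyclin Y on the Wnt receptor. Each group was 1 library, so the differences have no replicate check, no test was possible and no p-value is given. The sources used here do not give strain, age, hairpin sequence or whether the cells were cultured. The labels conflict, since retinas appear in the extraction text and the human breast cancer line MDA-MB-231 in the design text. The table holds mouse genes, and the basal genes Krt14 (1199 FPKM in Scramble control and 994 in Cdk14-sh), Krt5 (129 and 242) and Trp63 (8.42 and 23.9) were present in both libraries. Of 16 basal markers, all measured, 9 were below 0 in log2 ratio and 7 above, and their summed level was 4581 and 3434 FPKM. Luminal markers were abundant as well, and differed between the libraries: of 16, 14 were in the table and 10 measured, with 6 below 0 and 4 above and a summed level of 1693 and 1135 FPKM. Among them, Krt8 was at 456 and 223 FPKM, Krt18 at 382 and 106, Ltf at 95.9 and 0.513 and Ly6d at 3.96 and 125. Krt19 (20.5 and 42.9 FPKM), Cd24a (91.7 and 128) and Prom1 (0.0684 and 6.15) were, like Ly6d, higher in Cdk14-sh. Genes of both layers were thus present in the libraries labelled basal, and the part of luminal cells in the differences below was not tested. Cdk14 was at 2.06 FPKM in Scramble control and 0.713 in Cdk14-sh, 34.5% of the control level.

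Intervals in parentheses are exact 95% binomial (Clopper-Pearson) intervals for counting error alone, from reads recovered out of FPKM and gene length. They compare 2 libraries, not 2 conditions. The members rested on 90 to 10012 reads in Scramble control and 133 to 9496 in Cdk14-sh, of library totals of 10186924 and 10177185 reads. For the log2 ratio, 1 was added to both FPKM values and Cdk14-sh was divided by Scramble control; a fold is the plain ratio of FPKM. Because 1 is added, a low gene can differ more than 2-fold in FPKM and still have a log2 ratio within 1. Counts of genes past 2-fold use the log2 ratio.

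The promoters of 3 members are printed first, because the same actin-linked element lies in genes that differed in opposite directions. The CArG box is the binding element of serum response factor, which is known for driving cytoskeletal genes. RefSeq promoter windows (GRCm38.p6, 250 bases before to 50 after the annotated start) matched 30 members, with 39 windows; Itgb3, Parva, Ptk2, Pxn and Tln2 were not matched. A CArG box was found in 5 of these 39 windows, those of Vcl, Fermt2, Itgb6, Trip6 and Rsu1, and in 1.63% of all 32851 windows of the table, searched on both strands. The lines below give the 250 bases before the start for the 3 genes whose box lies there, 5′ to 3′ on the gene's strand, with the box in capitals.
Vcl (chr14:20929148-20929397, plus strand): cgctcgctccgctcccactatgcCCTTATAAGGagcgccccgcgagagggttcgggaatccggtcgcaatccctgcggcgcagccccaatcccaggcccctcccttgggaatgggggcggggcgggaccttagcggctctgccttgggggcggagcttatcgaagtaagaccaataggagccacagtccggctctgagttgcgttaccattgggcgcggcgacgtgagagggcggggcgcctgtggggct
Fermt2 (chr14:45530066-45530315, minus strand): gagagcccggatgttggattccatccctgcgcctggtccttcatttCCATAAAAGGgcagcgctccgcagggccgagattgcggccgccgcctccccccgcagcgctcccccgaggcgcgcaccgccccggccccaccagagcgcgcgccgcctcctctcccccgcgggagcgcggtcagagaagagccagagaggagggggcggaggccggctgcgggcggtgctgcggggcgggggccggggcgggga
Itgb6 (chr2:60673694-60673943, minus strand): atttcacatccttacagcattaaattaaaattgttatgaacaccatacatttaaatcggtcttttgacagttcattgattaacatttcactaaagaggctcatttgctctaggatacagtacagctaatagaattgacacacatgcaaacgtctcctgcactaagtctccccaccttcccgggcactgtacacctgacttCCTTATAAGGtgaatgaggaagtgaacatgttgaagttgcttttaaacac
The box began 227 bases before the start in Vcl, 204 in Fermt2 and 50 in Itgb6. In Trip6 and Rsu1 it lay just after the start. The Itgb6 window belongs to an annotated start inside the gene, and the window at the outer start of Itgb6 had no match; those of Vcl and Fermt2 are at the outer start. The gene values do not separate starts. Vcl was lower in Cdk14-sh, and Fermt2 and Itgb6 were higher, with values below. A match of letters is a description and not a bound site.

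Of the 35 members, 23 had a log2 ratio below 0, against 48.6% of the 12830 measured genes, and 12 had one above 0, against 51.4%. Their median log2 ratio was -0.25, beside 0.02 for all measured genes. Only 3 members (Fyn, Itga1 and Actn1) were at least 2-fold lower on the log2 scale, where 13.5% of measured genes were, and 2 (Src and Tln2) were at least 2-fold higher, where 14.2% were. Over all levels neither share exceeds its background, so these counts are no result about the members as a group. The members' log2 ratios had an SD of 0.658 against 1.02 for all measured genes. Within 1.5-fold on the log2 scale lay 22 of the 35, beside 50.3% of measured genes. The counting interval of the ratio was wholly below 1 in 21 members and wholly above 1 in 10, against 33.2% and 35.9% of measured genes with a length. Intervals narrow with more reads. The members were longer and more abundant, with a median of 23.4 FPKM in Scramble control beside 7.62 for all measured genes, so these shares are not like for like. The interval held 1 in Itgb8, Vasp, Ptk2 and Trip6.

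**Figure D1:**
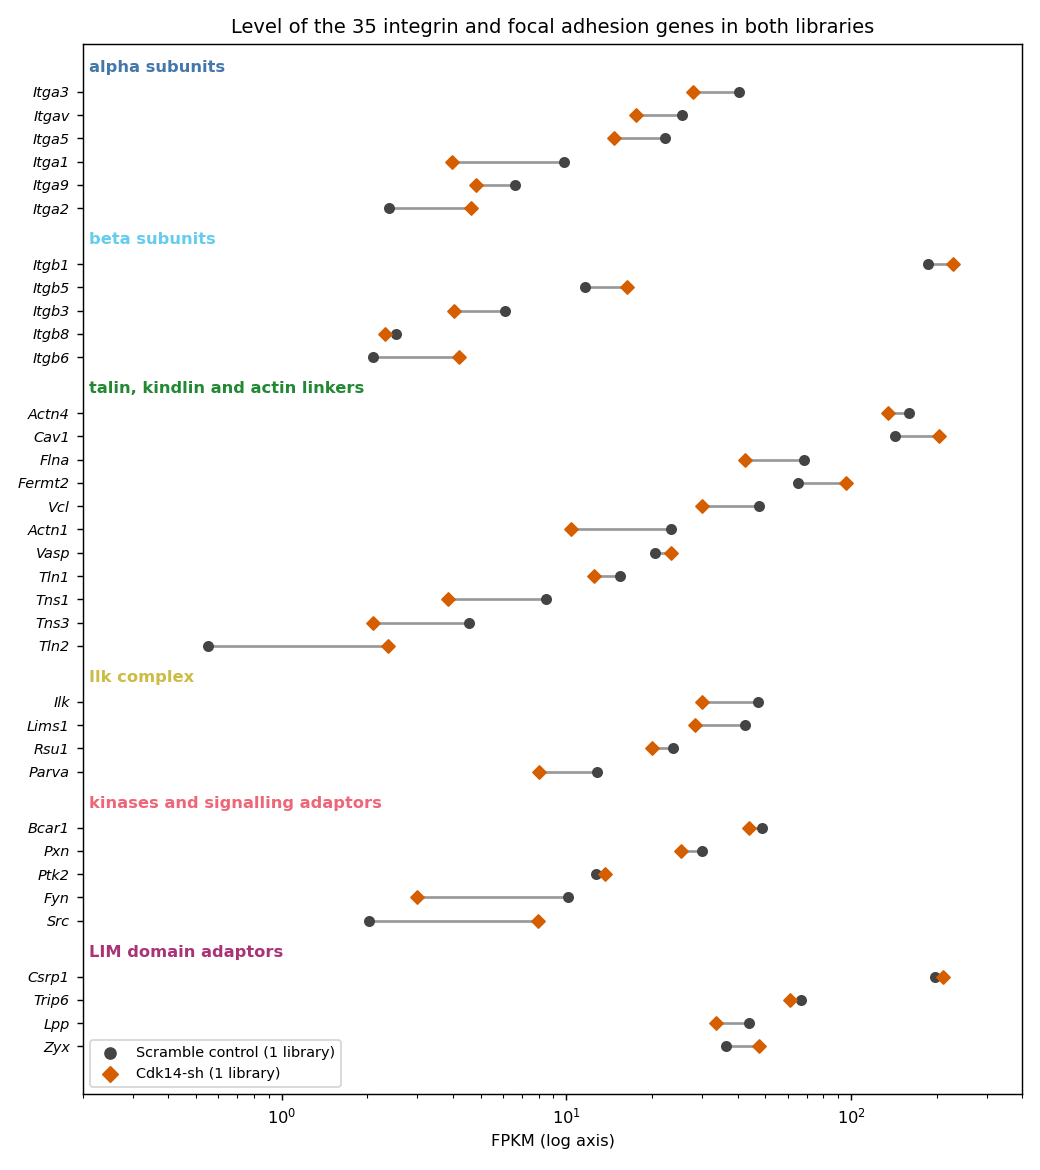
FPKM of each of the 35 members in Scramble control (grey circles) and Cdk14-sh (orange diamonds), 1 library each, on a log axis, grouped by role and ordered by the Scramble control level. Levels ran from 0.551 FPKM for Tln2 to 229 for Itgb1, and all 4 genes of the Ilk complex sit to the left in Cdk14-sh.

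**Figure D2:**
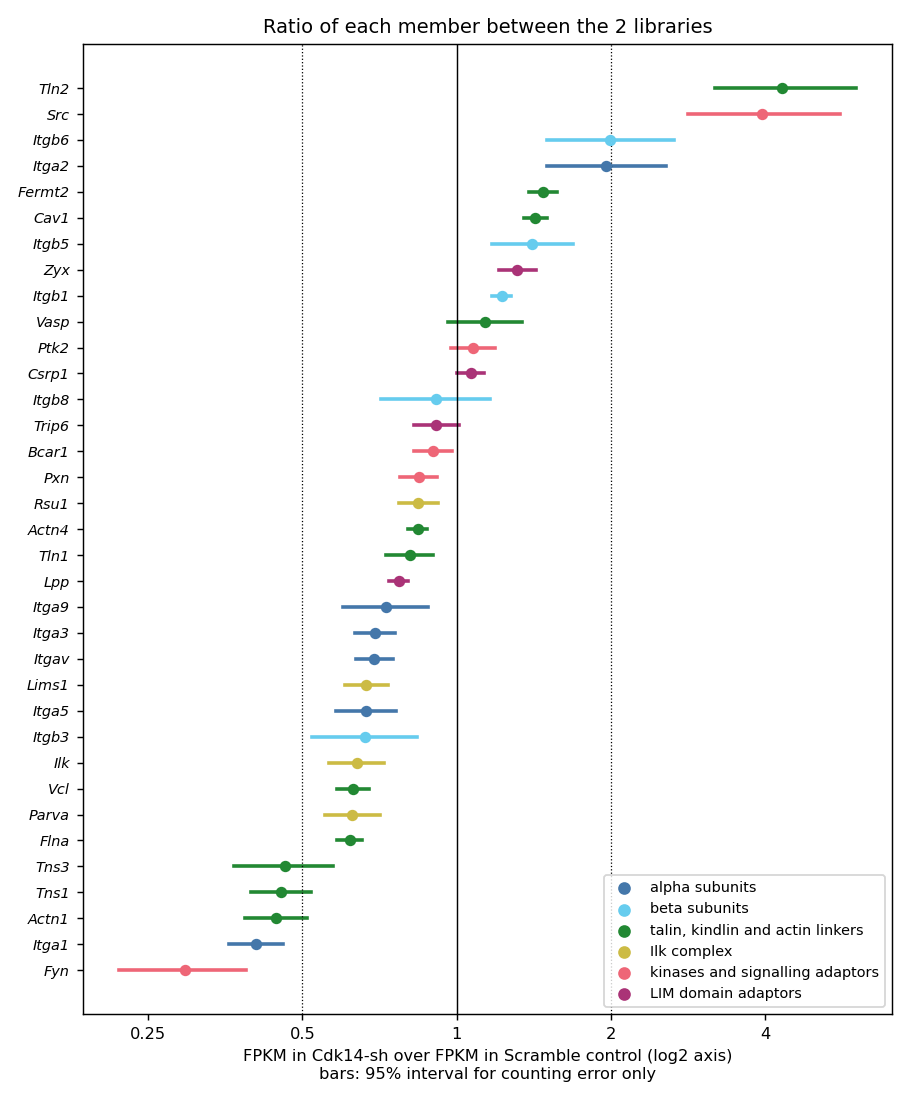
Ratio of FPKM in Cdk14-sh over Scramble control for each member on a log2 axis, coloured by role, with 95% intervals for counting error only and dotted lines at 0.5 and 2. Tln2 (4.31) and Src (3.94) are at the high end and Fyn (0.295) and Itga1 (0.406) at the low end.

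Log2 ratios scattered less at higher levels, with an SD of 1.10 over genes from 1 to 5 FPKM and 0.696 above 100 FPKM, so the members were also read beside genes of like level. Of the 14 members with a mean from 20 to 100 FPKM, 11 were below 0, none was past 2-fold and the median log2 ratio was -0.30. Among all 2606 genes in that range, 44.9% were below 0, 8.14% were at least 2-fold lower, 9.25% at least 2-fold higher, and the median was 0.08. In the range from 5 to 20 FPKM, 9 of 11 members were below 0 with a median of -0.56, beside 50.1% and -0.0039 for all 4775 genes. All 3 members past 2-fold lower were in this range, where 13.7% of genes were. The 6 members from 1 to 5 FPKM went the other way, with 2 below 0 and a median of 0.74, beside 50.5% and -0.02. Both members past 2-fold higher were here, where 18.5% of genes were. These counts are small, and no member in either range was past 2-fold in the other direction on the log2 scale. The 4 members above 100 FPKM, Itgb1, Csrp1, Cav1 and Actn4, had 1 below 0.

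**Figure D3:**
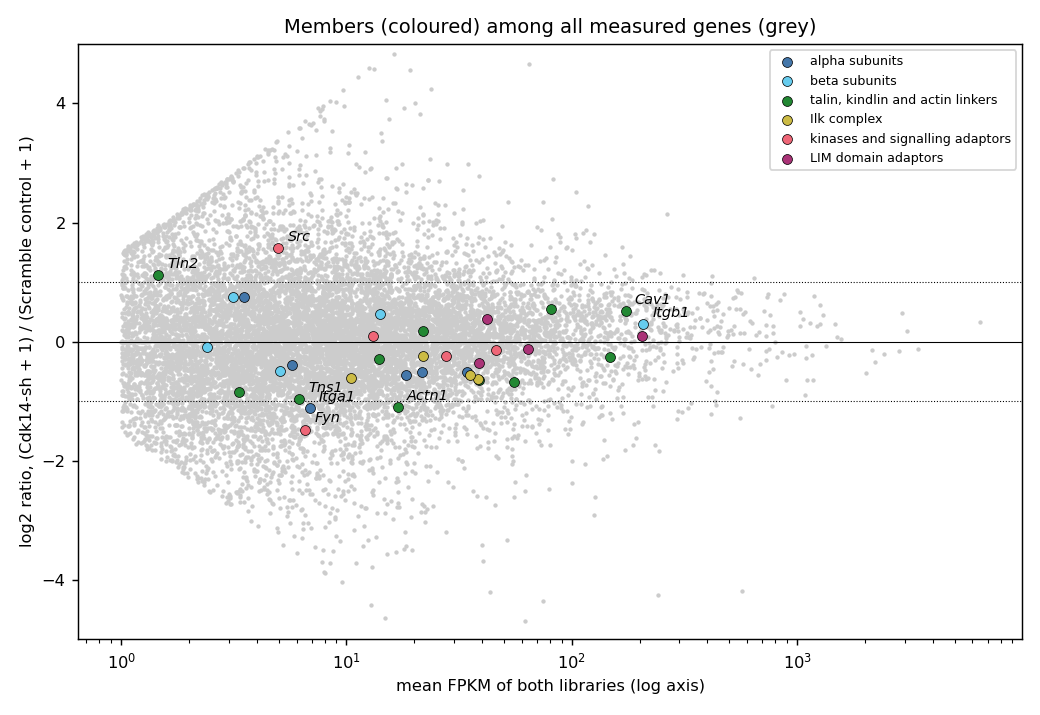
Log2 ratio against the mean FPKM of both libraries (log axis) for all 12830 measured genes (grey) and the 35 members (coloured by role); dotted lines mark 2-fold, and 4 genes beyond 5 on the log2 scale are outside the axis. Most members from 5 to 100 FPKM lie below 0. Src and Tln2 lie above the upper dotted line and Fyn, Itga1 and Actn1 below the lower one.

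The alpha subunits set which matrix protein an integrin binds. Of the 6, 5 were lower in Cdk14-sh and 1 was higher, with a median log2 ratio of -0.51. Itga1, a collagen receptor subunit (ENSMUSG00000042284, chromosome 13, 114953096 to 115101964, GRCm38, minus strand), stood at 9.79 FPKM in Scramble control and 3.97 in Cdk14-sh. This 2.46-fold difference (2.18 to 2.79) was the widest among the alpha subunits, and 11.2% of measured genes had a log2 ratio as low or lower. The other collagen receptor subunit, Itga2, went the opposite way, from 2.38 FPKM in Scramble control to 4.64 in Cdk14-sh, 1.95-fold higher (1.5 to 2.57). Both pair with Itgb1; Itga1 was the higher of them in Scramble control and Itga2 in Cdk14-sh.

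The remaining alpha subunits were lower by similar amounts. Itga3, which binds laminins, was at 40.3 FPKM in Scramble control and 27.9 in Cdk14-sh, 1.44-fold lower (1.32 to 1.58). Itga5, the fibronectin receptor subunit, was at 22.2 and 14.7 FPKM, 1.51-fold lower (1.32 to 1.72). Itgav, the shared partner of the RGD-binding beta subunits, was at 25.5 and 17.6 FPKM, 1.45-fold lower (1.33 to 1.57). Itga9, which binds tenascin and related ligands, was the closest of the lower subunits, at 6.61 and 4.80 FPKM and 1.38-fold lower (1.14 to 1.67). The intervals of these 4 overlap one another, and none overlaps that of Itga1.

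The beta subunits did not share that direction. Itgb1, the common beta subunit of most matrix receptors, was the most abundant member, at 187 FPKM in Scramble control and 229 in Cdk14-sh, 1.22-fold higher (1.17 to 1.28). Itgb5 and Itgb6 both pair with Itgav. Itgb5 was at 11.7 and 16.4 FPKM, 1.40-fold higher (1.17 to 1.68), and Itgb6, an epithelial subunit known for activating latent TGF-beta, at 2.10 and 4.19 FPKM, 2.0-fold higher (1.5 to 2.66). Itgb3, another partner of Itgav, was lower, at 6.09 FPKM in Scramble control and 4.03 in Cdk14-sh, 1.51-fold (1.19 to 1.92). Itgb8, at 2.52 and 2.30 FPKM, did not differ beyond counting error (ratio 0.913, 0.711 to 1.16).

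Summed over the 6 alpha subunits, FPKM was 107 in Scramble control and 73.7 in Cdk14-sh, and summed over the 5 beta subunits 209 and 256. Itgb1 was 1.75 times the sum of these 6 in Scramble control and 3.10 times in Cdk14-sh, a ratio that leaves out its partner Itga6, added below. Among the larger shares, Itga3 held 37.8% of the alpha sum in Scramble control and 37.9% in Cdk14-sh, Itgav 23.9% in both, and Itgb1 89.3% and 89.5% of the beta sum. Itga1 dropped from 9.17% of the alpha sum to 5.39%, while Itga2 went from 2.22% to 6.30%. The ratio of Itgb5 to Itgb3 was 1.92 in Scramble control and 4.07 in Cdk14-sh.

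**Figure D4:**
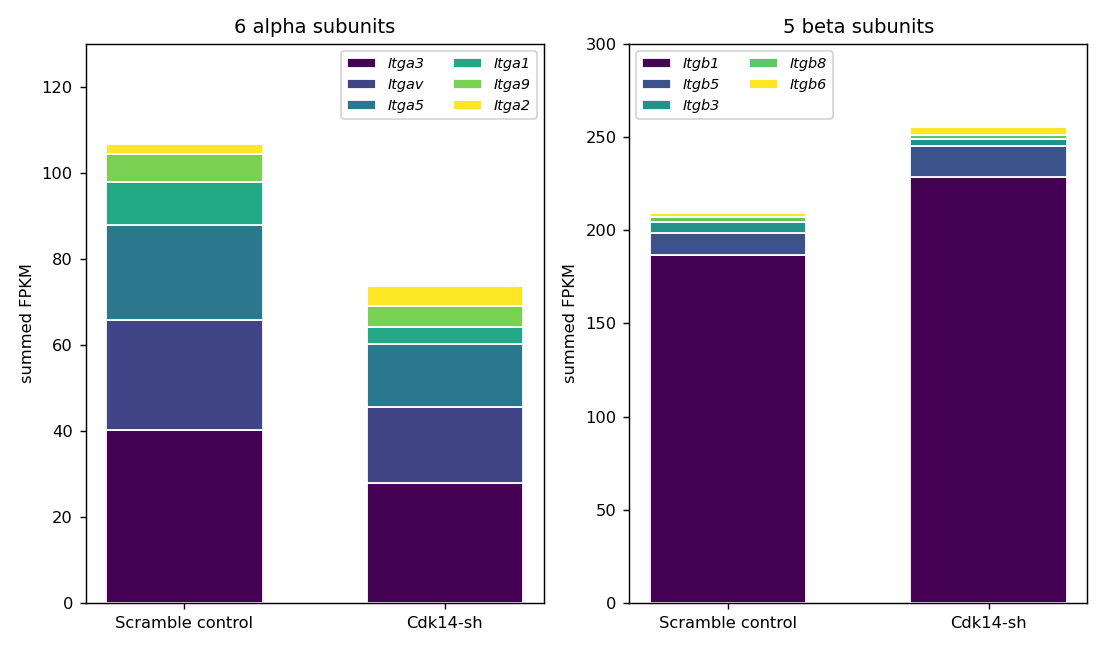
Summed FPKM of the 6 alpha subunits (left) and the 5 beta subunits (right) in each library, stacked by gene; the axes start at 0 and have different ranges. The alpha stack is shorter in Cdk14-sh (73.7 against 107) and the beta stack taller (256 against 209), almost all of it Itgb1.

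The list of other integrin subunits had 17 genes, of which 5 were in the table and 3 measured. The largest was Itga6, the laminin receptor subunit that pairs with Itgb1 or with the hemidesmosome subunit Itgb4. Itga6 was at 119 FPKM in Scramble control and 112 in Cdk14-sh, 1.07-fold lower (1.03 to 1.11), above every alpha subunit among the members. With it and the other listed alpha subunits, the alpha sum was 234 FPKM in Scramble control and 195 in Cdk14-sh, and Itga6 held 51.0% and 57.4% of it. Against this wider sum of 9 alpha subunits, Itgb1 was 0.797 times in Scramble control and 1.18 times in Cdk14-sh. Itgb4 was at 6.49 and 4.73 FPKM, 1.37-fold lower (1.12 to 1.68), and Itga8 at 8.0 and 8.78, with an interval of the ratio (0.936 to 1.29) that holds 1.

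Talins and kindlins bind the beta tail. Tln1, the talin of most cells, was at 15.4 FPKM in Scramble control and 12.5 in Cdk14-sh, 1.24-fold lower (1.11 to 1.38). Its paralogue Tln2 (ENSMUSG00000052698, chromosome 9, 67217087 to 67559703, minus strand) was the lowest member in Scramble control, at 0.551 FPKM (103 reads), and stood at 2.37 FPKM (443 reads) in Cdk14-sh. It was 4.31-fold higher (3.19 to 6.0), and 11.9% of measured genes had a log2 ratio as high or higher. Tln1 remained the larger of the pair, with 96.6% of their summed FPKM in Scramble control and 84.0% in Cdk14-sh, and the sum itself was 16.0 and 14.8 FPKM. Fermt2 (kindlin-2), one of the genes with a CArG box printed above, was at 65.3 and 96.2 FPKM, 1.47-fold higher (1.39 to 1.57).

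Of the 11 talin, kindlin and actin linker genes, 7 were below 0 and 4 above, with a median log2 ratio of -0.28. On the log2 scale 1 was past 2-fold in each direction. Their summed level hardly differed, at 558 FPKM in Scramble control and 561 in Cdk14-sh. Actn1, a non-muscle alpha-actinin that crosslinks actin filaments (ENSMUSG00000015143, chromosome 12, 80167547 to 80260371, minus strand), was at 23.4 FPKM in Scramble control and 10.4 in Cdk14-sh, 2.25-fold lower (1.96 to 2.59). Its paralogue Actn4, at 160 and 135 FPKM, was 1.19-fold lower (1.14 to 1.24), so Actn1 made up 12.7% of the pair's FPKM in Scramble control and 7.18% in Cdk14-sh. Tns1 and Tns3, the tensins among the members, bind beta tails and actin at fibrillar adhesions and were lower by like amounts. Tns1 was at 8.49 and 3.85 FPKM, 2.20-fold lower (1.92 to 2.52), and Tns3 at 4.55 and 2.10 FPKM, 2.17-fold lower (1.74 to 2.72). Their ratio to each other hardly differed (1.87 in Scramble control and 1.84 in Cdk14-sh), unlike that of the talins or the actinins. Tns2 and Tns4 are outside the members and named after their values were seen. Tns2 was lower, at 4.65 and 1.75 FPKM, and Tns4 higher, at 4.31 and 7.93 FPKM (1.84-fold, 1.46 to 2.34).

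Vinculin (Vcl), which binds talin under tension, was at 47.5 FPKM in Scramble control and 29.9 in Cdk14-sh, 1.59-fold lower (1.48 to 1.71). Filamin A (Flna), an actin crosslinker that binds beta tails, was at 68.6 and 42.4 FPKM, 1.62-fold lower (1.53 to 1.71). Of the exonic bases of Vcl, 25.5% lie opposite another gene, and the sources used here do not say if strand was used in counting. The 2 remaining genes of this group were not lower. Cav1 (caveolin-1), a membrane scaffold, was at 143 FPKM in Scramble control and 204 in Cdk14-sh, 1.42-fold higher (1.35 to 1.5). Vasp, which speeds actin filament growth, was at 20.5 and 23.2 FPKM, a ratio of 1.13 whose interval (0.960 to 1.34) holds 1.

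All 4 genes of the complex of Ilk, parvin and PINCH were lower in Cdk14-sh, with a median log2 ratio of -0.59. This complex joins beta tails and kindlin to actin. Ilk, the integrin-linked pseudokinase, was at 47.0 FPKM in Scramble control and 30 in Cdk14-sh, 1.57-fold lower (1.38 to 1.77). Parva (alpha-parvin) was at 12.9 and 8.05 FPKM, 1.60-fold lower (1.41 to 1.81), and Lims1 (PINCH1) at 42.6 and 28.4 FPKM, 1.5-fold lower (1.36 to 1.65). The intervals of these 3 overlap, and Rsu1, which binds PINCH1, differed less, at 23.7 and 19.9 FPKM and 1.19-fold lower (1.09 to 1.30). For Ilk, 89.7% of exonic bases lie opposite another gene, so its reads and those of its neighbour could not be told apart if strand was not used.

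The paralogues of these partners, fixed in the list of other adhesion components, differed in their own ways. Lims2 (PINCH2) was at 0.407 FPKM in Scramble control and 8.18 in Cdk14-sh, 20.1-fold higher (9.47 to 58.8), one of the 3 highest genes of that list. Lims1 was still 28.4 FPKM in the same library. Parvb (beta-parvin), named after its values were seen, was at 1.42 and 0.334 FPKM, under the mean of 1 FPKM needed to count as measured.

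The Src-family kinases of the members went in opposite directions. On the log2 scale with 1 added, Src was the highest member and Fyn the lowest; in plain FPKM ratio Tln2 was above Src. Src (ENSMUSG00000027646, chromosome 2, 157418444 to 157471862, plus strand) was at 2.02 FPKM (90 reads) in Scramble control and 7.96 FPKM (354 reads) in Cdk14-sh, 3.94-fold higher (2.82 to 5.59). Fyn (ENSMUSG00000019843, chromosome 10, 39368855 to 39565381, plus strand) was at 10.1 FPKM (451 reads) in Scramble control and 3 FPKM (133 reads) in Cdk14-sh, 3.39-fold lower (2.58 to 4.55). Src was the minor kinase of the pair in Scramble control, with 16.6% of their summed FPKM, and the major one in Cdk14-sh, with 72.7%. The sum differed little, at 12.2 and 11.0 FPKM. Among measured genes, 6.24% had a log2 ratio as high as that of Src or higher, and 6.34% one as low as that of Fyn or lower, so neither is rare in these 2 libraries. Csk, the kinase that holds Src family members inactive and named here after its values were seen, was at 0.525 FPKM (20 reads) in Scramble control and 2.73 FPKM (104 reads) in Cdk14-sh.

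The other signalling members differed little. Ptk2 was at 12.7 FPKM in Scramble control and 13.7 in Cdk14-sh, with an interval of the ratio (0.975 to 1.19) that holds 1. Its scaffold partner paxillin (Pxn) was at 29.9 and 25.2 FPKM, 1.19-fold lower (1.09 to 1.29). Bcar1 (p130Cas), a substrate of Ptk2 and Src, was at 48.7 and 43.8 FPKM, 1.11-fold lower (1.02 to 1.21). The adaptor Crkl, which docks on phosphorylated Bcar1 and paxillin, was the highest gene of the other adhesion components, at 0.0508 FPKM in Scramble control and 7.76 in Cdk14-sh. It rested on about 2.6 reads in Scramble control, and the interval of its ratio of 153 ran from 35.3 to 7907. Its paralogue Crk, named after its values were seen, was at 72.6 and 51.6 FPKM, so Crk was the larger of that pair in both libraries.

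The 4 LIM domain adaptors, which sit on actin near adhesions, were split. Zyx (zyxin) was at 36.3 FPKM in Scramble control and 47.7 in Cdk14-sh, 1.31-fold higher (1.21 to 1.43), while its relative Lpp was at 43.7 and 33.7 FPKM, 1.30-fold lower (1.24 to 1.35). Trip6, of the same family, was at 66.7 and 60.8 FPKM, with an interval of the ratio (0.825 to 1.01) that holds 1. Csrp1, a small protein with paired LIM domains, was at 198 and 210 FPKM, a ratio of 1.06 at the edge of counting error. Its log2 ratio of 0.09 turned to -0.02 when ratios were taken relative to genes of like exonic length and to -0.09 relative to genes of like mean.

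Read back against the printed promoters, the 5 genes with a CArG box went both ways: Fermt2 and Itgb6 were higher, Vcl and Rsu1 lower, and Trip6 within counting error. Serum response factor (Srf) was at 3.53 FPKM in Scramble control and 7.51 in Cdk14-sh, and Mkl1, one of its coactivators, at 1.73 and 7.26. Mkl2, another coactivator and named after its values were seen, was at 6.30 and 5.63 FPKM. The interval of its ratio (0.752 to 1.06) holds 1. The core letters GGAATG of the TEAD element (both strands) lay in 6 member windows, those of Actn4, Flna, Itgb1, Lpp, Trip6 and Vcl, beside 14.7% of all windows. The AP-1 letters TGANTCA lay in 4, those of Actn4, Itga3, Itga9 and Zyx, beside 7.81%. The matched windows of Flna, Lpp, Itga3 and Itga9 belong to annotated starts well inside the gene. Only Itgb1 of the TEAD set and only Zyx of the AP-1 set were above 0. Among all 35 members, 23 were below 0. Member windows were richer in G and C than the table as a whole, with a median of 62.3% beside 52.7%. The median was 65.7% in the windows of members below 0 and 59.7% in those of members above 0.

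Members are long genes, with a median exonic length of 6127 bases beside 3636 for all measured genes, and length moved with the ratio across all genes. When genes were ordered by length, the 3199 longest had a median log2 ratio of -0.08 and 54.1% below 0, whereas the 3199 shortest had 0.07 and 45.7%. Of the 18 members among the longest, 14 were below 0 with a median of -0.33. Relative to genes of like exonic length, the median of the members was -0.20 and 24 were below 0. The log2 ratio of Itga1 was then -0.92, no longer past 2-fold.

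Beyond the members, 63 of 67 other adhesion components were in the table and 59 were measured. Of these, 33 were below 0 and 26 above, beside 48.6% and 51.4% of all measured genes. In each direction 6 were past 2-fold, where 13.5% of measured genes were lower and 14.2% higher, so neither share exceeds its background. The median log2 ratio of this list was -0.14. The lowest 3 were Nexn, an actin-binding protein of muscle and adhesions (21.9 and 4.15 FPKM, 5.28-fold lower, 4.14 to 6.76), the intermediate filament gene Synm (18.1 and 5.07 FPKM) and Rapgef1, an exchange factor that acts downstream of Crk (12.2 and 3.25 FPKM). The highest after Crkl and Lims2 was Fhl1, a LIM protein of muscle, at 1.16 and 8.89 FPKM. Cav2, the partner of Cav1 and named after its values were seen, was at 69.2 FPKM in Scramble control and 165 in Cdk14-sh, 2.39-fold higher (2.23 to 2.56), in the direction of Cav1. Ptrf (Cavin1), also named after its values were seen, went the other way, at 272 and 236 FPKM (ratio 0.865, 0.830 to 0.901).

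Matrix ligands of integrins leaned the other way from the alpha subunits. Of 27 measured, 19 were above 0 and 8 below, beside 51.4% of all measured genes above 0. At least 2-fold higher were 9, beside 14.2%, and 3 were at least 2-fold lower, beside 13.5%. The median log2 ratio of the ligands was 0.50. The highest were the basement membrane linker Nid1 (0.990 FPKM in Scramble control and 13.5 in Cdk14-sh), Thbs2 (0.0332 and 3.68, from about 2.4 reads in Scramble control) and the collagen gene Col3a1 (1.18 and 8.77). The lowest were tenascin C (Tnc, 5.61 and 0.967 FPKM), a ligand of integrins with Itga9, periostin (Postn, 92.3 and 34.0), a ligand of those with Itgav, and the laminin chain Lamb2 (35.3 and 16.0). Fibronectin (Fn1), the ligand of integrins with Itga5 and named after its values were seen, was at 0.731 and 6.23 FPKM, 8.53-fold higher (6.27 to 12.1), while Itga5 was lower.

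Set beside neighbouring gene sets, the members' median of -0.25 was close to that of hemidesmosome and laminin-332 genes (-0.27, 7 of 11 below 0) and lower than that of YAP and TEAD targets (-0.08, 11 of 19 below 0) and of actomyosin stress fibre genes (0.17, 13 of 29 below 0). Smooth muscle contractile genes had a median of -1.15, with 12 of 15 below 0 and 8 at least 2-fold lower. Of all measured genes, 48.6% were below 0 and 13.5% at least 2-fold lower. With 1 library a group, differences between these sets were not tested.

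**Figure D5:**
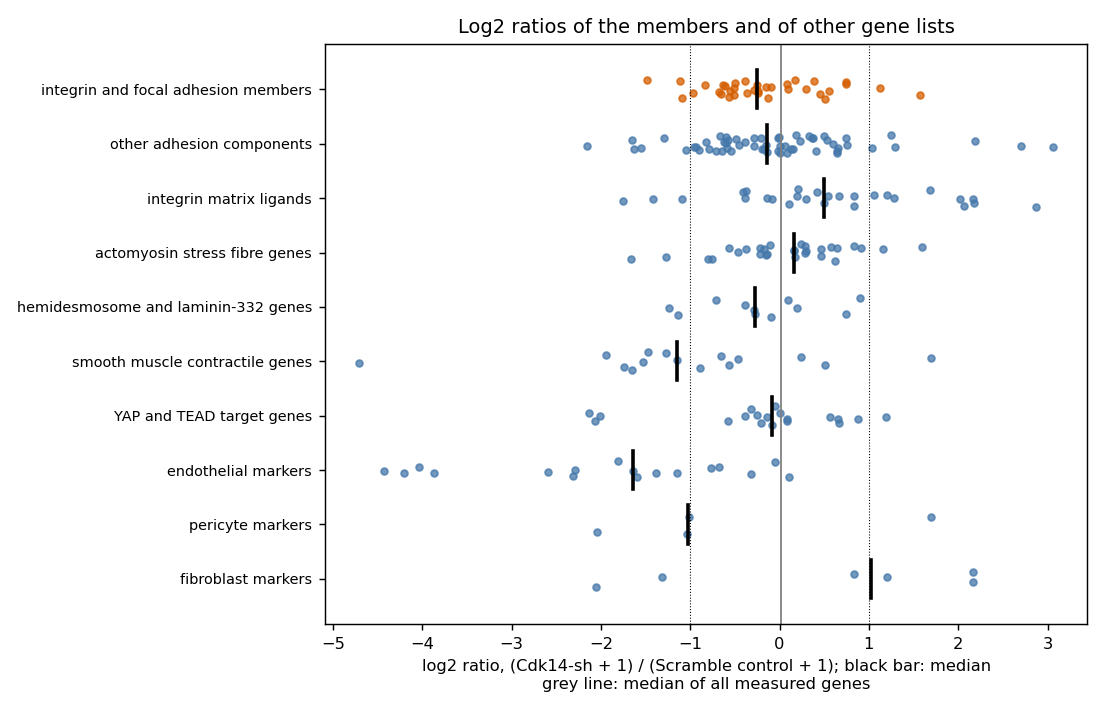
Log2 ratio of each measured gene of the members (orange) and of 9 other lists (blue), with the median of each list as a black bar, the median of all measured genes as a grey line and dotted lines at 2-fold. The members cluster closer to 0 (median -0.25) than smooth muscle contractile genes (-1.15) or endothelial markers (-1.64).

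Vascular cells also make many of these adhesion proteins, and most endothelial markers were lower in Cdk14-sh. Of 20 endothelial markers, 18 were in the table and 17 measured. Of these 17, 16 were below 0 and 12 at least 2-fold lower, beside 48.6% and 13.5% of measured genes. The summed level of the 18 in the table was 315 FPKM in Scramble control and 77.9 in Cdk14-sh. Pecam1 was at 16.9 and 1.96 FPKM and Cdh5 at 12.8 and 1.82, and Kdr and Erg were not analysed here. Of 4 measured pericyte markers, 3 were below 0, and the summed level of the 5 in the table was 127 and 60 FPKM. Fibroblast markers summed to 299 and 121 FPKM, and 2 of 6 measured were below 0, Gsn (185 and 43.8) and Dcn (104 and 41.2). The other 4, Col1a1, Col1a2, Col3a1 and Fbln1, were above 0, and the median log2 ratio of the list was 1.02. These collagen genes are also in the list of matrix ligands. Immune markers summed to 108 and 388 FPKM, with 1 of 6 measured below 0. Most of the Cdk14-sh sum came from Cd74 (49.0 and 175 FPKM), H2-Ab1 (23.6 and 125) and H2-Aa (5.45 and 50.2). Cd68 and Csf1r were also higher. The measured gene below 0 was Coro1a (2.61 and 1.06 FPKM), and Ptprc, too low to count as measured, was lower as well (0.482 and 0.247). The part of these cells in the members' differences was not tested, and in bulk RNA fewer cells of a type and less RNA per cell cannot be told apart.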

How the data were processed

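The authors deposited 1 table of FPKM values, with a column for each of the 2 libraries; each column name abbreviates the sample title it was assigned to. The submitters' processing notes name Bowtie 0.12.2, featureCounts and Subread 1.5.1, and mention mm8 and GRCm38 as builds with no role stated. The treatment of multiply mapped reads and the filter of the table are not given in the sources used here; no gene was at 0 in either library.

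Reads were recovered as FPKM times exonic length from GENCODE M21 (GRCm38). Both values were multiples of 0.5 reads (tolerance 0.01) in 26 of the 35 members and in 79.1% of the 15195 genes that have a length; for the others reads and intervals are approximate. The smaller of the 2 commonest low values was assumed to be 1 fragment of 2 reads, and the read numbers and library totals rest on that. Intervals took 2 reads as 1 fragment and cover counting error only. A gene was measured where its mean reached 1 FPKM, a pseudocount of 1 FPKM was used, and a log2 ratio at or past 1 in size was called 2-fold. The design had planned protein features, which were not run because no protein table was used here.

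The members, lists and measures were chosen with earlier results of these data known. Named genes are the members, Cdk14, markers, and the 3 highest and 3 lowest of a list; further names are marked. Alternatives were other pseudocounts, filters, limits and scalings, summed symbols, the mean, and, added after seeing the data, running medians over 501 genes by exonic length or mean FPKM and other numbers of reads per fragment. The arithmetic was tested on simulated data. Python 3.11.15, pandas 2.3.3 and scipy 1.17.1 were used.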

Additional observations from a re-analysis of the deposited data

How the results depend on the processing

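The count of members below 0 was 21 to 24 under all 10 alternatives, where the 21 were of 29 members with a mean of at least 5 FPKM. The median log2 ratio stayed below 0. That median was -0.37 with a mean of at least 5 FPKM and -0.37 relative to genes of like mean FPKM, and -0.18 when the mean replaced the median. The counts past 2-fold rest on few genes. At least 2-fold lower were 5 members with a pseudocount of 0.1 FPKM (Tns1 and Tns3 joined) and 0 with one of 5 FPKM; the 1.5-fold limit gave 9 and the 4-fold limit 0. At least 2-fold higher were 0 with a pseudocount of 5 FPKM, 0 with a mean of at least 5 FPKM, which leaves out Tln2 and Src, 4 at the 1.5-fold limit and 0 at the 4-fold limit. Of 280 values of single members under 8 settings, 28 left the counting interval, and the sign changed for Csrp1 alone, in the settings given with its values. The 3 scalings moved the median of all genes by 0.02 on the log2 scale and changed no sign or 2-fold call of a member. Counting intervals left out 1 in 34 members with each read as independent and in 23 with 10 reads as 1 fragment, beside 31. No paired analysis was possible because each group has 1 library. Depth limits Tln2 and Src most, with 103 and 90 reads in Scramble control.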
